A study of Mus musculus with 10 samples.

Results

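The genes examined encode 9 secreted ligands of the bone morphogenetic protein (BMP) and growth differentiation factor (GDF) family: Bmp2, Bmp3, Bmp4, Bmp5, Bmp6, Bmp7, Gdf5, Gdf6 and Gdf10. They were taken by symbol from a table of 25239 gene symbols, 9 of 9 were found in it, and 9 of 9 passed the filter on low counts that left 15416 genes for testing. RNA was sequenced from 2 populations of cells that had been sorted by flow cytometry from the calvarial suture, the fibrous seam where skull plates meet, in mice of postnatal day 7. Each population had 5 libraries, numbered 1 to 5. The first, DDR2-plus, carries the name of DDR2, a surface receptor for collagen, and the second is called PSC, which the labels do not expand. For both groups alike the genotype label reads WT, while the protocol names Ctsk-Cre mice, in which the gene of the protease cathepsin K drives Cre, and no other allele and no treatment is named for either group. The protocol states 5 animals without tying them to libraries, so the p-values measure the spread between these libraries only.

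BMP ligands are made as precursors, cut by proprotein convertases, and secreted as dimers that bring together type I and type II receptor kinases, which then phosphorylate SMAD proteins. Secreted antagonists bind many of the ligands before they reach a receptor, and the signal switches on inhibitors of its own pathway. The family was found through its power to induce cartilage and bone. In skeletal tissue Bmp2 and Bmp4 form a closely related pair, Bmp5, Bmp6 and Bmp7 a second subgroup, Gdf5 and Gdf6 another that is best known from joints, and Bmp3 and Gdf10 (also called Bmp3b) a divergent pair, of which Bmp3 is known as an inhibitor of bone formation.

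Total counts ran from 43419129 to 62021992 per library, so that 1 count equalled 0.0146 to 0.0249 CPM, the scale of the levels below, in which counts are set against library size and corrected with edgeR's TMM factors for library composition. Ddr2 mRNA was lower in DDR2-plus than in PSC, at 112 ± 3.55 against 152 ± 10.7 CPM (SD, n = 5 each; edgeR adjusted p = 0.000165), and Ctsk was too, at 107 ± 15.2 against 294 ± 15.0 CPM (SD, n = 5 each; edgeR adjusted p = 4.36e-07). DDR2 is a surface receptor, and the level of its transcript need not follow that of the protein on sorted cells. The Ddr2 values therefore do not settle what the name DDR2-plus stands for. Ctsk is named in the protocol for the Cre of the mice, and its relation to the sort was not tested. Of a list of 18 cartilage markers, 18 were higher in DDR2-plus, with a summed level of 112559 to 154116 CPM against 16565 to 36256 CPM in PSC. Of 4 markers of hypertrophic cartilage, 3 were higher and 1, Mef2c, was lower, with a sum of 2633 to 3436 against 789.9 to 1415 CPM. Of 13 osteoblast markers, 11 were lower, with a sum of 66594 to 108132 against 307776 to 339343 CPM. So were 7 of 8 fibroblast and periosteum markers (2795 to 4256 against 9794 to 13531 CPM) and 5 of 6 tendon markers (3211 to 4154 against 4838 to 5697 CPM). Fmod, the tendon marker that was higher, had the highest mean of that list, 3545 against 2506 CPM. Tnmd, next in level, was at 75.8 against 1451 CPM. Of all tested genes 20.1% were higher and 19.0% lower in DDR2-plus. Markers of brain and nerve also parted the groups. Of 8 glial and Schwann cell genes 8 were higher (sum 436.5 to 948.5 against 40.7 to 96.2 CPM). S100b had the highest mean of that list in both populations, 229 against 53.7 CPM. Of 6 choroid plexus genes 5 were higher (72.3 to 1663 against 6.20 to 14.9 CPM). Of 6 pineal and photoreceptor genes 5 were higher (135.8 to 210.7 against 4.37 to 7.52 CPM). Cdhr1 and Aanat were at 0 in PSC. Asmt did not pass the test (3.73 against 5.86 CPM) and made up most of the PSC sum. Of 8 neuronal genes 7 were higher (70.3 to 243.6 against 6.78 to 12.8 CPM, with Slc17a6 at 0 in PSC). The summed level of 6 epithelial and olfactory genes was 288.6 CPM in DDR2-plus 5, 16.8 to 21.8 CPM in the other DDR2-plus libraries and 3.50 to 8.67 CPM in PSC (Gfy was at 0 there). The part of these marker differences in the ligand results was not tested, and in bulk RNA fewer cells of a type and less RNA per cell cannot be told apart.

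Of the 9 ligands, 5 were higher and 3 lower in DDR2-plus, and 1 did not pass the test (edgeR quasi-likelihood test, Benjamini-Hochberg adjusted p under 0.05). Such calls were common in this comparison. Of all tested genes 39.1% passed, 20.1% as higher and 19.0% as lower. The 5 libraries of the populations did not overlap for 8 of the 9 ligands and for 30.1% of all tested genes. Bmp2, Bmp5, Bmp6, Bmp7 and Gdf5 were the higher ligands, Bmp3, Bmp4 and Gdf6 the lower ones. By related group, Bmp2 was higher and Bmp4 lower, Gdf5 higher and Gdf6 lower, while Bmp5, Bmp6 and Bmp7 were all higher. In the divergent pair Bmp3 was lower and Gdf10 did not pass the test. The median log2 fold change of the ligands, DDR2-plus over PSC, was 0.74, against 0.04 for all tested genes, and the median size of the change regardless of direction was 1.00 against 0.43. The ligands were chosen with earlier results of these data known, and most stood above the median tested gene in level per length. Their contrasts with all tested genes are therefore descriptive, and genes of matched level were not compared. Called changes of at least 2-fold were found for 5 of the 9 ligands (55.6%) and for 15.9% of all tested genes. Bmp5 was just over that cut-off and Bmp3 just under it. Over the 20 alternative fits the log2 fold change ran from 0.93 to 1.27 for Bmp5 and from -1.03 to -0.71 for Bmp3. With library size alone as the scaling, the median over all tested genes rose to 0.31 from 0.04, and the calls split into 5421 higher and 1538 lower genes, against 3096 and 2926 with TMM. Under that scaling, too, Bmp3, Bmp4 and Gdf6 were lower and the other 6 ligands higher.

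**Figure D1:**
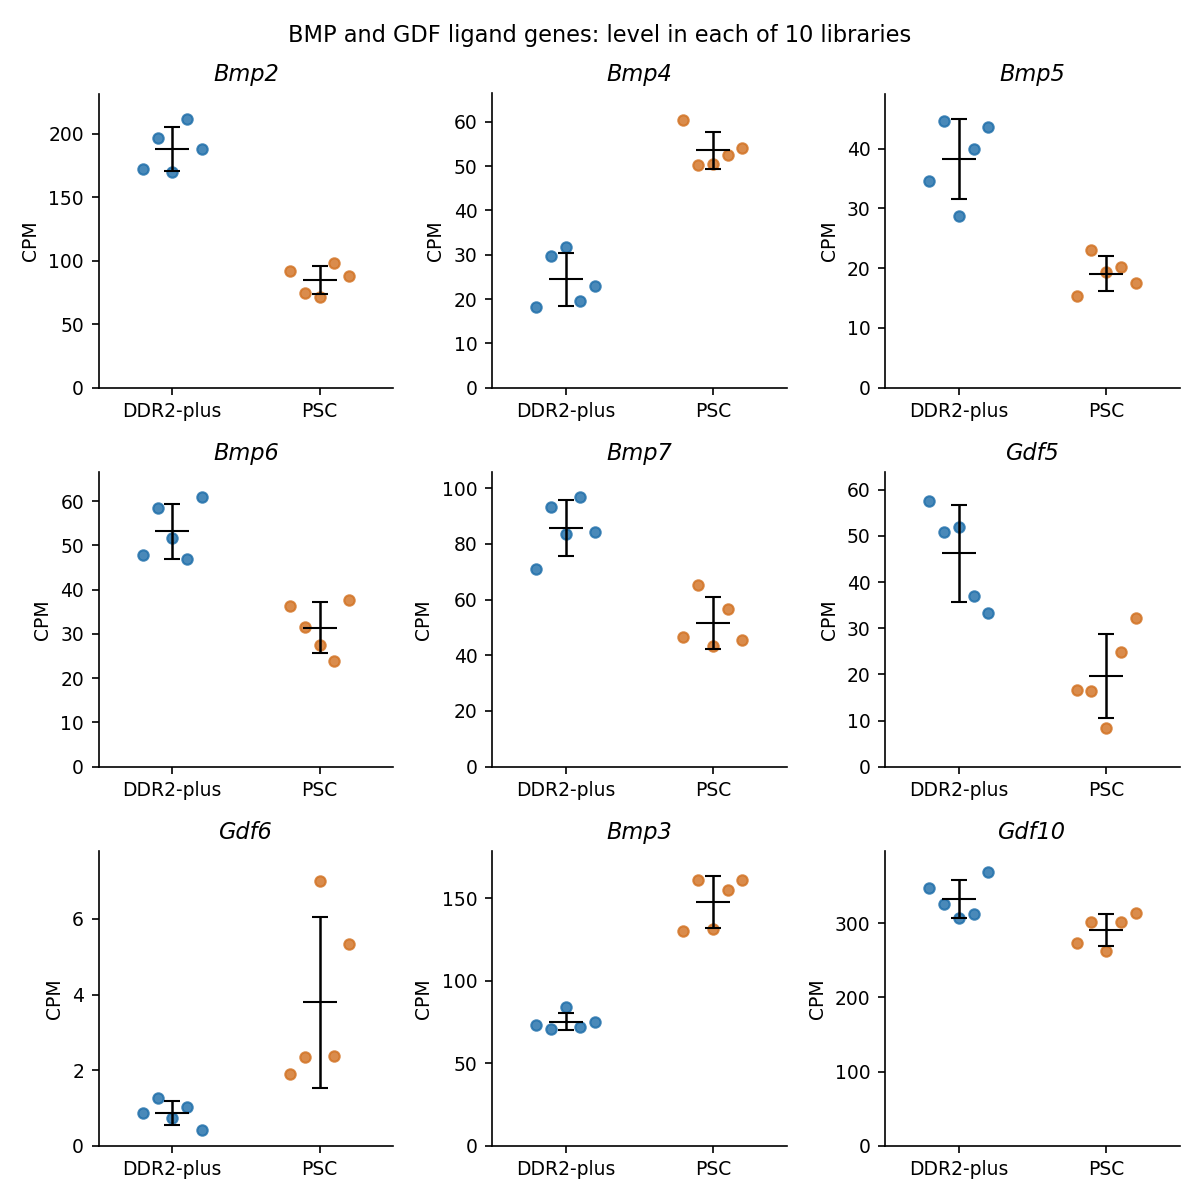
Levels of the 9 ligand genes in each library, in CPM scaled by TMM factors, with each axis starting at 0. Points are the 5 libraries of each population, the horizontal bar is their mean and the whiskers are 1 SD. The points of DDR2-plus and PSC do not overlap for 8 of the 9 genes, and they overlap for Gdf10.

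Promoter sequences of 250 bases before the transcript start were taken for 4 of the 9 genes, Bmp4, Bmp5, Bmp6 and Gdf10, from RefSeq (GRCm38.p6, the assembly of build mm10). Those of Bmp4, lower in DDR2-plus, and Bmp5, higher there, are shown because they are of different base composition while the genes were at similar levels per length in DDR2-plus. In PSC the levels were 23.8 CPM per kb for Bmp4 and 4.74 for Bmp5. A link of base composition to level was not tested. The Bmp4 window lies at chr14:46390670-46390919 on the minus strand and the Bmp5 window at chr9:75775115-75775364 on the plus strand. Both are written 5′ to 3′, with the GC box motif GGGCGG, searched on both strands, in capitals.
Bmp4: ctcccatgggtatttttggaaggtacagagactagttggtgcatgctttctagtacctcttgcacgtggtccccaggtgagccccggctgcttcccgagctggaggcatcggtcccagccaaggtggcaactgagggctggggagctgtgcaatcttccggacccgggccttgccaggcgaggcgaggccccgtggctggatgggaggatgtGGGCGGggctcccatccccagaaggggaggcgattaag
Bmp5: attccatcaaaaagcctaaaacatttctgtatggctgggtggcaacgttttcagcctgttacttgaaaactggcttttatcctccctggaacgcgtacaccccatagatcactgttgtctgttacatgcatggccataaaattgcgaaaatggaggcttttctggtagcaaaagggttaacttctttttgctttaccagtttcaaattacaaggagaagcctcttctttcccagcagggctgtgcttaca
The Bmp4 window was 63.2% G and C with 11 CpG dinucleotides and held 1 GC box. The Bmp5 window was 42.8% G and C with 4 CpG dinucleotides and held none. Over all 32851 promoter windows of the same length the median was 52.4% G and C and 6 CpG, and 32.7% held the motif, so the 2 windows stood on either side of the median. The windows of Bmp6 (68.8% G and C, 22 CpG, 1 GC box) and Gdf10 (78.8%, 35 CpG, 4 GC boxes) were richer still. Bmp5 and Bmp6, both higher in DDR2-plus, had the poorest and the second richest of these 4 windows in G and C.

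Bmp2 is a strong inducer of cartilage and bone formation. The gene lies on chromosome 2 (mm10, 133552159 to 133562885, plus strand). Its level in DDR2-plus 1 to 5 was 172, 197, 170.1, 211 and 188 CPM, and in PSC 1 to 5 it was 91.6, 74.7, 71.6, 97.7 and 87.9 CPM. The lowest DDR2-plus library stood well above the highest PSC library. Bmp2 was 2.22-fold higher in DDR2-plus, 187.7 ± 17.3 against 84.7 ± 11.2 CPM (SD, n = 5 each; log2 fold change 1.15, SE 0.0987, edgeR adjusted p = 2.49e-06). Bmp4, its closest relative and a ligand that acts early in skull vault development, went the other way. The gene lies on chromosome 14 (46383520 to 46390669, minus strand). It stood at 18.1, 29.8, 31.6, 19.6 and 23.0 CPM in DDR2-plus 1 to 5 and at 60.5, 50.2, 50.3, 52.6 and 54.1 CPM in PSC 1 to 5. All PSC libraries were above all DDR2-plus libraries, and within DDR2-plus the values fell into a higher pair, libraries 2 and 3, and lower values in the other 3. Bmp4 was 2.19-fold lower, 24.4 ± 6.03 against 53.5 ± 4.21 CPM (SD, n = 5 each; log2 fold change -1.13, SE 0.150, edgeR adjusted p = 7.28e-05). DDR2-plus 3, highest of its group for Bmp4, also had the highest osteoblast marker sum of that group, 108132 CPM, and the lowest cartilage marker sum, 112559 CPM. That osteoblast sum was below every PSC library, as was its Bmp4 level. DDR2-plus 2, next in Bmp4, did not share this. Its osteoblast sum, 85401 CPM, was below the 88331 CPM of DDR2-plus 5, and its cartilage sum was 153143 CPM. A link of Bmp4 to either sum was not tested.

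A ratio of a gene pair within a library is free of the library's scaling. Per kilobase of exon, Bmp2 was 6.01, 4.18, 3.40, 6.83 and 5.16 times Bmp4 in DDR2-plus 1 to 5, and 0.957, 0.941, 0.900, 1.18 and 1.03 times Bmp4 in PSC 1 to 5. The pair was near parity in each PSC library, while Bmp2 exceeded Bmp4 by more than 3-fold in each DDR2-plus library. The median ratio was 5.39 times as large in DDR2-plus as in PSC.

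Bmp5, Bmp6 and Bmp7 encode the second subgroup, and mice without Bmp5 have altered external ears and ribs. The Bmp5 gene lies on chromosome 9 (75775364 to 75900310, plus strand). Its levels in DDR2-plus 1 to 5 were 34.7, 44.7, 28.7, 39.9 and 43.5 CPM, against 15.4, 23.0, 19.4, 20.2 and 17.6 CPM in PSC 1 to 5. DDR2-plus 3 was the lowest of its group and yet above all PSC libraries. The fold was 2.01, with means of 38.3 ± 6.65 and 19.1 ± 2.85 CPM (SD, n = 5 each; log2 fold change 1.00, SE 0.143, edgeR adjusted p = 0.000124). An annotated antisense gene, Gm26903, shares 46.7% of the exonic bases of Bmp5, and the libraries do not mark the strand, so reads of the pair cannot be told apart.

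Bmp6, which is best known as a regulator of hepcidin and iron balance and also occurs in maturing cartilage, lies on chromosome 13 (38345107 to 38500302, plus strand). It stood at 47.7, 58.4, 51.7, 47.0 and 60.8 CPM in DDR2-plus 1 to 5 and 36.4, 31.5, 27.6, 24.0 and 37.6 CPM in PSC 1 to 5. The groups came close to each other without overlapping. Bmp6 was 1.69-fold higher (53.1 ± 6.25 against 31.4 ± 5.76 CPM, SD, n = 5 each), with a log2 fold change of 0.76 (SE 0.131) and an edgeR adjusted p of 0.000554. Bmp7, needed for kidney and eye development and used to induce bone, lies on chromosome 2 (172868012 to 172940321, minus strand). Its values were 70.9, 93.2, 83.6, 97.0 and 84.3 CPM in DDR2-plus 1 to 5 and 46.5, 65.4, 43.5, 56.6 and 45.4 CPM in PSC 1 to 5. The gap between the populations was narrow here, from 65.4 in PSC 2 to 70.9 CPM in DDR2-plus 1. The difference was 1.67-fold (85.8 ± 10.1 against 51.5 ± 9.29 CPM, SD, n = 5 each; log2 fold change 0.74, SE 0.124, edgeR adjusted p = 0.00045).

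Ratios within this subgroup overlapped between the populations, and their difference was not tested. Per length, Bmp7 was 1.34 to 2.003 times Bmp6 in DDR2-plus (median 1.55) and 1.17 to 2.29 times in PSC (median 1.53). Bmp6 was 1.21 to 1.86 times Bmp5 in DDR2-plus (median 1.42) and 1.23 to 2.44 times in PSC (median 1.47). Bmp7 over Bmp5 ran from 1.94 to 2.92 in DDR2-plus (median 2.09) and from 2.246 to 3.03 in PSC (median 2.81), which was the widest gap in medians of the 3. No ratio within Bmp5, Bmp6 and Bmp7, which were all higher, parted the libraries. Bmp2 over Bmp4 and Gdf5 over Gdf6 had to part them, since each pair differed in opposite directions without overlap. That parting is therefore no result beyond the calls of the single genes. Bmp2 over Bmp7, a ratio across subgroups, also parted the libraries (2.30 to 2.75 in DDR2-plus, 1.29 to 2.23 in PSC).

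**Figure D2:**
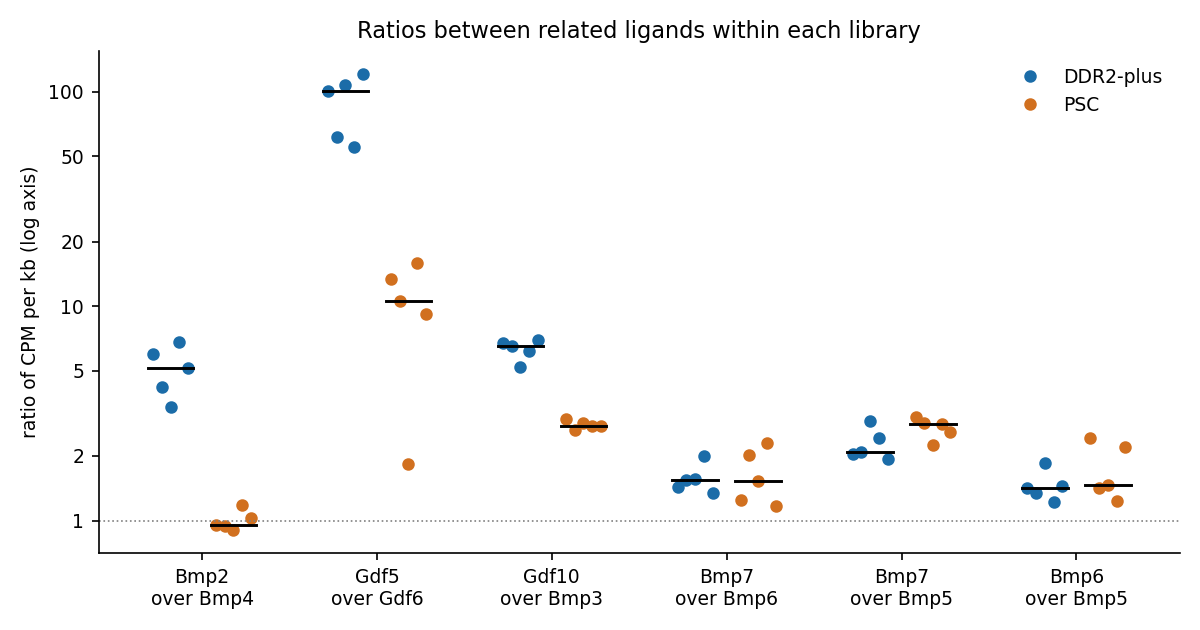
Ratio of related ligands within each library, computed from CPM per kilobase of exon and drawn on a log axis. Points are libraries, bars are the median of each population, and the dotted line marks equal levels. Bmp2 over Bmp4, Gdf5 over Gdf6 and Gdf10 over Bmp3 are separate between the populations, and the 3 ratios within Bmp5, Bmp6 and Bmp7 overlap.

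Gdf5 is a marker of forming joints and acts in cartilage condensation. The gene lies on chromosome 2 (155941023 to 155945367, minus strand). In DDR2-plus 1 to 5 it stood at 57.7, 50.9, 52.0, 37.0 and 33.4 CPM, and in PSC 1 to 5 at 16.6, 16.3, 8.45, 24.9 and 32.3 CPM. PSC 5 came within about 1 CPM of the lowest DDR2-plus library, so that the groups only just failed to overlap. Gdf5 was 2.35-fold higher, 46.2 ± 10.4 against 19.7 ± 9.14 CPM (SD, n = 5 each; log2 fold change 1.23, SE 0.290, edgeR adjusted p = 0.00472), and the spread in PSC was wide, at 46.4% of the mean. Gm15557, a gene annotated on the opposite strand, shares 40.3% of the Gdf5 exonic bases, and their reads cannot be told apart either. Smaller overlaps with genes of the opposite strand are annotated for Bmp6 (Txndc5, 5.74% of exonic bases) and Bmp4 (Gm15217, 3.96%).

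Gdf6, which is linked to joint and coronal suture formation, lies on chromosome 4 (9844372 to 9862345, plus strand) and was the least abundant of the ligands per length, with 24 to 303 counts per library. Its levels were 0.868, 1.26, 0.736, 1.02 and 0.418 CPM in DDR2-plus 1 to 5 and 1.88, 2.34, 7.01, 2.38 and 5.33 CPM in PSC 1 to 5. PSC 3 and PSC 5 were higher than the other 3 PSC libraries, and all PSC libraries were above DDR2-plus. Gdf6 was 4.39-fold lower in DDR2-plus, the largest fold of the 9, with the widest error (0.861 ± 0.314 against 3.79 ± 2.26 CPM, SD, n = 5 each). Its log2 fold change was -2.13 (SE 0.484), with an edgeR adjusted p of 0.00369. With DDR2-plus 2 and 3 alone against PSC, a fit with 3 fewer libraries, the log2 fold change was -1.92 and the call was lost (edgeR adjusted p = 0.0842, with 4.15e-05 to 0.0842 over the 20 alternatives). Those 2 libraries still held 701 and 1134 CPM of choroid plexus markers, of which Ttr alone gave 648 and 1067 CPM. PSC 3, the library with the highest Gdf6, had the lowest Gdf5 and the lowest cartilage marker sum, 16565 CPM. PSC 5, next in Gdf6, went the other way, with the highest Gdf5 of PSC, 32.3 CPM, and the median cartilage sum, 25656 CPM. Per length, Gdf5 was 55.0 to 122 times Gdf6 in DDR2-plus and 1.83 to 15.9 times in PSC, with the lowest value in PSC 3.

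Bmp3, an antagonist-like ligand abundant in bone, lies on chromosome 5 (98854415 to 98884396, plus strand). It stood at 73.2, 70.8, 83.8, 72.2 and 75.1 CPM in DDR2-plus 1 to 5 and 130.4, 161, 131, 155 and 161 CPM in PSC 1 to 5. These were tight groups, far apart. Bmp3 was 1.97-fold lower in DDR2-plus, 75.0 ± 5.14 against 147.8 ± 15.7 CPM (SD, n = 5 each; log2 fold change -0.98, SE 0.0841, edgeR adjusted p = 2.5e-06). Gdf10, its relative on chromosome 14 (33923587 to 33937983, plus strand), was the most abundant ligand per length. Its levels were 348, 326, 307, 313 and 369 CPM in DDR2-plus 1 to 5 and 273, 301, 262, 302 and 314 CPM in PSC 1 to 5. PSC 5 exceeded DDR2-plus 3 and 4, so the populations overlapped. The fold was 1.15, with 332.6 ± 25.7 against 290.6 ± 21.8 CPM (SD, n = 5 each; log2 fold change 0.20, SE 0.0746), and it did not pass the test at an edgeR adjusted p of 0.0543. Of the 20 alternative settings, 9 called Gdf10 higher, with adjusted p from 0.000299 to 0.421 over all of them. Leaving out DDR2-plus 3 (edgeR adjusted p = 0.0465) or PSC 5 (edgeR adjusted p = 0.0412) brought it past the threshold. Per length, Gdf10 was 5.20 to 6.98 times Bmp3 in DDR2-plus and 2.66 to 2.97 times in PSC, with no overlap.

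**Figure D3:**
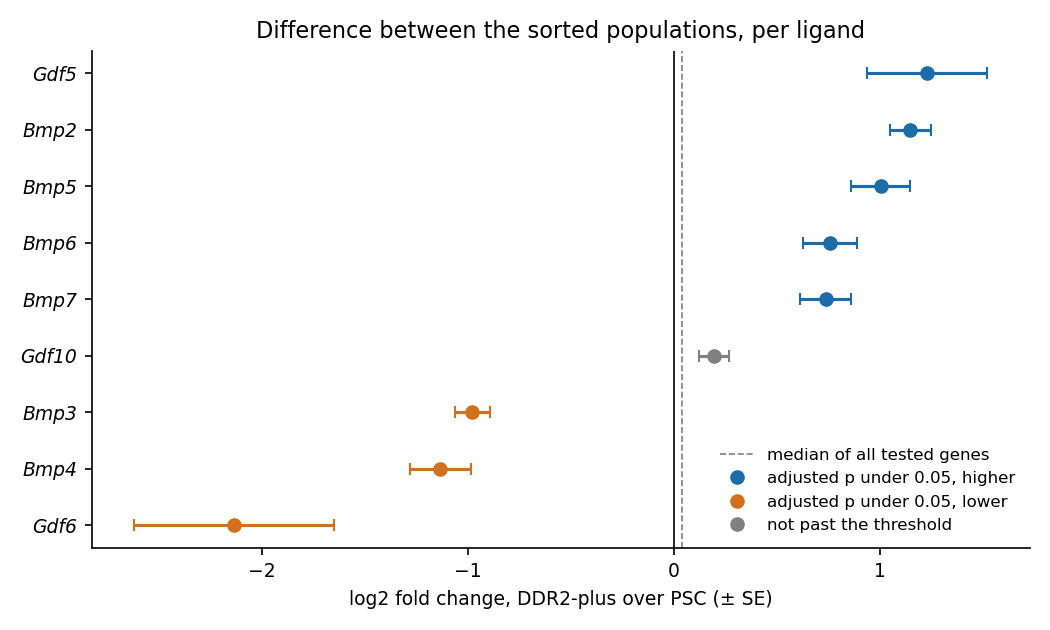
Log2 fold change of each ligand, DDR2-plus over PSC, with its SE, from the edgeR fit of 5 libraries per population. The dashed line is the median of all tested genes, 0.04. Gdf5 (1.23) and Gdf6 (-2.13) have the widest errors, and Gdf10 (0.20) is the ligand that did not pass the test.

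Levels were compared between ligands per kilobase of exon, since a longer transcript yields more counts. For Bmp5 and Gdf5, levels, shares and ratios per length also depend on how reads shared with the opposite-strand genes were counted. That is not known here. In DDR2-plus the order was Gdf10 (63.8 CPM per kb), Bmp2 (52.8), Bmp7 (21.3), Gdf5 (19.9), Bmp6 (13.6), Bmp4 (10.9), Bmp3 (10.1), Bmp5 (9.52) and Gdf6 (0.244). Gdf10 and Bmp2 overlapped in range, although Gdf10 was above Bmp2 in 5 of 5 libraries. From Bmp7 to Bmp5 each ligand overlapped the next, so that stretch of the order is not fixed, while the steps from Bmp2 to Bmp7 and from Bmp5 to Gdf6 were clear of the spread. In PSC the order was Gdf10 (55.8 CPM per kb), Bmp2 and Bmp4 (both 23.8), Bmp3 (19.98), Bmp7 (12.8), Gdf5 (8.49), Bmp6 (8.05), Bmp5 (4.74) and Gdf6 (1.07). Bmp2 and Bmp4 could not be ordered, Bmp2 being above Bmp4 in 2 of 5 libraries, and Bmp7, Gdf5 and Bmp6 overlapped along the chain. Among the 15107 tested genes with a known length, Gdf10 stood at percentiles 96.4 and 95.2 in DDR2-plus and PSC and Bmp2 at 95.5 and 89.2, whereas Gdf6 stood at 9.35 and 31.1. The other 6 ligands lay between percentiles 61.2 and 89.2.

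The summed per-length level of the 9 ligands was 202.3 ± 6.87 CPM per kb in DDR2-plus and 158.6 ± 12.6 in PSC (SD, n = 5 each). Of this sum Gdf10 made up 31.6% ± 2.38 in DDR2-plus and 35.2% ± 0.971 in PSC. Bmp2 made up 26.1% ± 2.12 against 15.0% ± 1.51. Bmp4 went from 15.1% ± 1.57 in PSC to 5.37% ± 1.31 in DDR2-plus, and Bmp3 from 12.6% ± 0.785 to 5.02% ± 0.466. In percentage points these 3 ligands differed most. Gdf5 held 9.87% ± 2.36 against 5.23% ± 2.11, Bmp7 10.5% ± 1.12 against 8.08% ± 1.33, Bmp6 6.73% ± 0.632 against 5.09% ± 0.879 and Bmp5 4.69% ± 0.687 against 3.01% ± 0.505, while Gdf6, with 0.120% ± 0.0418 against 0.694% ± 0.464, differed most as a ratio (all SD, n = 5 each). The sum of Bmp2, Bmp4, Bmp5, Bmp6 and Bmp7 alone was 108.1 ± 9.15 against 73.3 ± 4.75 CPM per kb (SD, n = 5 each), so the lower Bmp4 was outweighed by the others in DDR2-plus.

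**Figure D4:**
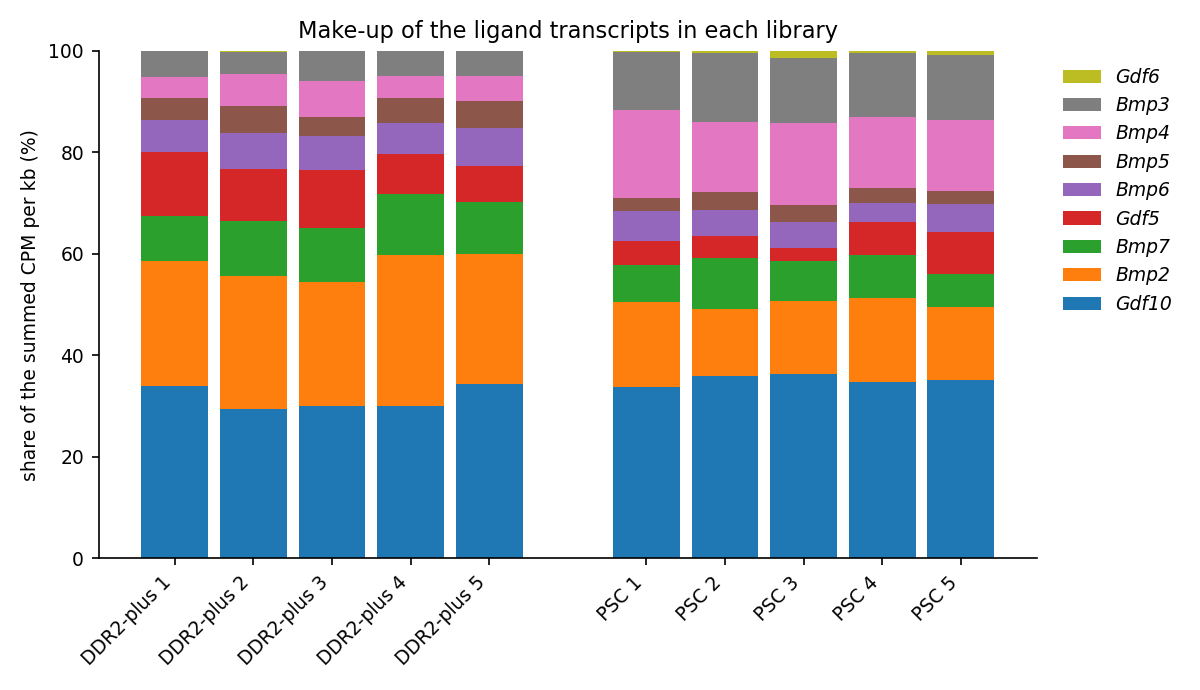
Share of each ligand in the summed CPM per kb of the 9 ligands, by library. Bmp2 (orange) takes a mean of 26.1% in DDR2-plus and 15.0% in PSC, and Bmp4 (pink) and Bmp3 (grey) take larger shares in each PSC library than in any DDR2-plus library.

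For each ligand, the genes with the most similar profile were sought among 8747 tested genes with a mean of at least 10 CPM (8748 for Gdf6), by Pearson's r of log2 CPM over the 10 libraries. A difference between the populations that a pair of genes shares adds to r, so r within the populations is given as well for the gene most like each ligand. Bmp2 was most like Tnfrsf21 (r = 0.99; within populations 0.88), Kctd4 and Slc35d1. Bmp4 was most like Phex, an osteoblast and osteocyte gene of phosphate balance (r = 0.99; within populations 0.96), Kazald1 and Ptgis. Phex is also a gene of the osteoblast marker list. For the second subgroup, Bmp5 was most like Ddx3x (r = 0.99; within populations 0.93), Nfe2l1 and Nid2, Bmp6 most like Tmem98 (r = 0.98; within populations 0.92), Agpat4 and Plcd1, and Bmp7 most like Cand1 (r = 0.97; within populations 0.85), Cdkn2aip and Sod2. Gdf5 was most like Clu, the gene of clusterin (r = 0.96; within populations 0.93), and Midn. Gdf6 was most like Rps6ka3 (r = 0.95; within populations 0.82), Alx4, a skull vault transcription factor gene, and Smdt1. Bmp3 was most like Fndc4 (r = 0.99; within populations 0.75) and Rhbdf1, and Gdf10 most like Vezt (r = 0.94; within populations 0.89), Lingo1 and Ppp5c.

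The rest of the pathway was read from 63 other genes listed by role, of which 57 were tested. DDR2-plus had 11 of them higher and 21 lower, together 56.1% against 39.1% of all tested genes, and their median log2 fold change was -0.19. Among the other ligands of the family 7 of 12 were tested. Bmp8a was lower (25.7 ± 6.50 against 53.3 ± 12.5 CPM, SD, n = 5 each; edgeR adjusted p = 0.000894), with a log2 fold change of -1.05 that was -0.70 and lost its call with DDR2-plus 2 and 3 alone (edgeR adjusted p = 0.0586). The other 6, Gdf11 (5.21 and 5.39 CPM) and Mstn (0.488 and 3.89 CPM in DDR2-plus and PSC) among them, did not pass. Bmp10, Gdf1, Gdf2, Gdf3 and Gdf7 were under the count filter.

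Genes that process the ligands or hold their prodomains were mostly lower. Of 8 tested, 6 were lower, 0 were higher and 2 did not pass, with a median log2 fold change of -1.10. Among all tested genes 19.0% were lower and 20.1% higher. Pcsk5, a proprotein convertase, was 4.16-fold lower (edgeR adjusted p = 3.89e-06) and its relative Pcsk6 2.37-fold lower (edgeR adjusted p = 0.000472). Bmp1, which despite its name is a metalloprotease that cuts procollagen and the antagonist chordin, was 2.68-fold lower, at 265 ± 37.3 against 710 ± 28.9 CPM (SD, n = 5 each; edgeR adjusted p = 4.55e-07). Fbn2, a microfibril protein that binds BMP prodomains, was 3.28-fold lower (edgeR adjusted p = 2.66e-05). Furin, the convertase most often tied to BMP processing, averaged 112 CPM over the DDR2-plus libraries and 78.9 over the PSC libraries and did not pass (edgeR adjusted p = 0.103), nor did Tll1 (8.001 and 6.99 CPM). Furin was called higher in 3 alternatives: library size alone (edgeR adjusted p = 0.0146), DESeq2 (adjusted p = 0.0459) and without PSC 4 (edgeR adjusted p = 0.0337).

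Receptor genes moved in both directions. Of 4 type I receptor genes, Bmpr1b, the receptor that Gdf5 binds best, was 3.17-fold higher in DDR2-plus. Its level was 6.65 to 16.7 CPM there against 2.199 to 6.13 CPM in PSC (log2 fold change 1.67, SE 0.316, edgeR adjusted p = 0.00111), and with DDR2-plus 2 and 3 alone the log2 fold change was 1.26 and the call was lost (edgeR adjusted p = 0.0714). Acvr1 (1.96-fold) and Acvrl1 (2.46-fold) were lower, and Bmpr1a was at 104 and 98.8 CPM (edgeR adjusted p = 0.533). Of 3 type II receptor genes, Bmpr2 was lower by a small amount (35.99 and 44.6 CPM, edgeR adjusted p = 0.0365). That call did not hold in 9 of the 20 alternatives, which included leaving out DDR2-plus 1, 2, 4 or 5 or PSC 1, 3 or 5. Acvr2a (16.5 and 14.8 CPM) and Acvr2b (6.55 and 6.75 CPM) did not pass. Of 4 tested co-receptor genes, Neo1 was 1.47-fold higher (log2 fold change 0.55, edgeR adjusted p = 0.00114), with 0.46 and an edgeR adjusted p of 0.0527 for DDR2-plus 2 and 3 alone. Rgmb, which binds Bmp2 and Bmp4, was 1.68-fold lower (edgeR adjusted p = 8.83e-05). Eng (11.9 and 8.76 CPM) and Rgma (5.34 and 6.09 CPM) did not pass. Of 4 genes for signal-carrying SMADs, Smad1 was 1.19-fold lower with TMM scaling (log2 fold change -0.25, edgeR adjusted p = 0.0314), but its direction turned with library size alone (log2 fold change 0.02, edgeR adjusted p = 0.872). It also lost its call without DDR2-plus 1, 3, 4 or 5 and without PSC 2, 3 or 5. Smad4 (51.0 and 75.0 CPM) and Smad5 (48.2 and 52.2 CPM) did not pass.

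Secreted antagonists were split, with 3 of 14 higher, 7 lower and 4 not past the test, and a median log2 fold change of -0.51. The shares over all tested genes were 20.1% higher and 19.0% lower. Twsg1, a chordin partner, was higher at 388 ± 20.6 against 254 ± 19.96 CPM (SD, n = 5 each; edgeR adjusted p = 2.45e-05). Fstl1 was 1.90-fold lower (969 against 1839 CPM, edgeR adjusted p = 5.85e-06). Sost, the osteocyte gene of sclerostin, which is known mainly as a WNT antagonist, was 5.59-fold lower (edgeR adjusted p = 4.42e-05), and Grem1, which binds Bmp2 and Bmp4, was 3.70-fold lower at a low level (2.02 against 7.49 CPM, edgeR adjusted p = 0.000199). Chrdl1 (113 and 106 CPM) and Bmper (59.2 and 50.7 CPM) did not pass.

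Of 14 genes that BMP signals are known to switch on or that damp them, 6 were higher, 2 lower and 6 did not pass, with a median log2 fold change of 0.10. Over all tested genes 20.1% were higher and 19.0% lower. All 4 inhibitor-of-differentiation genes on the list, Id1, Id2, Id3 and Id4, were among the higher ones. Id1, an early response gene of BMP signalling, was at 465, 485, 366, 476 and 419 CPM in DDR2-plus 1 to 5 and 154, 118, 65.9, 163 and 165 CPM in PSC 1 to 5. The populations were far apart, with PSC 3 and DDR2-plus 3 the lowest of their groups, and those were also the libraries with the lowest cartilage marker sums. Id1 was 3.32-fold higher (log2 fold change 1.73, SE 0.208, edgeR adjusted p = 3.4e-05) and Id2 1.68-fold higher (edgeR adjusted p = 4.24e-05). Smad7, an inhibitory SMAD gene, was 2.30-fold higher (edgeR adjusted p = 1.19e-05) and Msx2, a homeobox gene of the skull vault, 3.07-fold higher (edgeR adjusted p = 4.06e-05). Smad6 and Bambi, also inhibitors of the pathway, were the 2 lower genes. Dlx5 (36.6 and 42.6 CPM) and Smurf1 (36.6 and 39.1 CPM) did not pass. Many genes respond to other signals as well, and no measure of SMAD phosphorylation is part of these data.

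**Figure D5:**
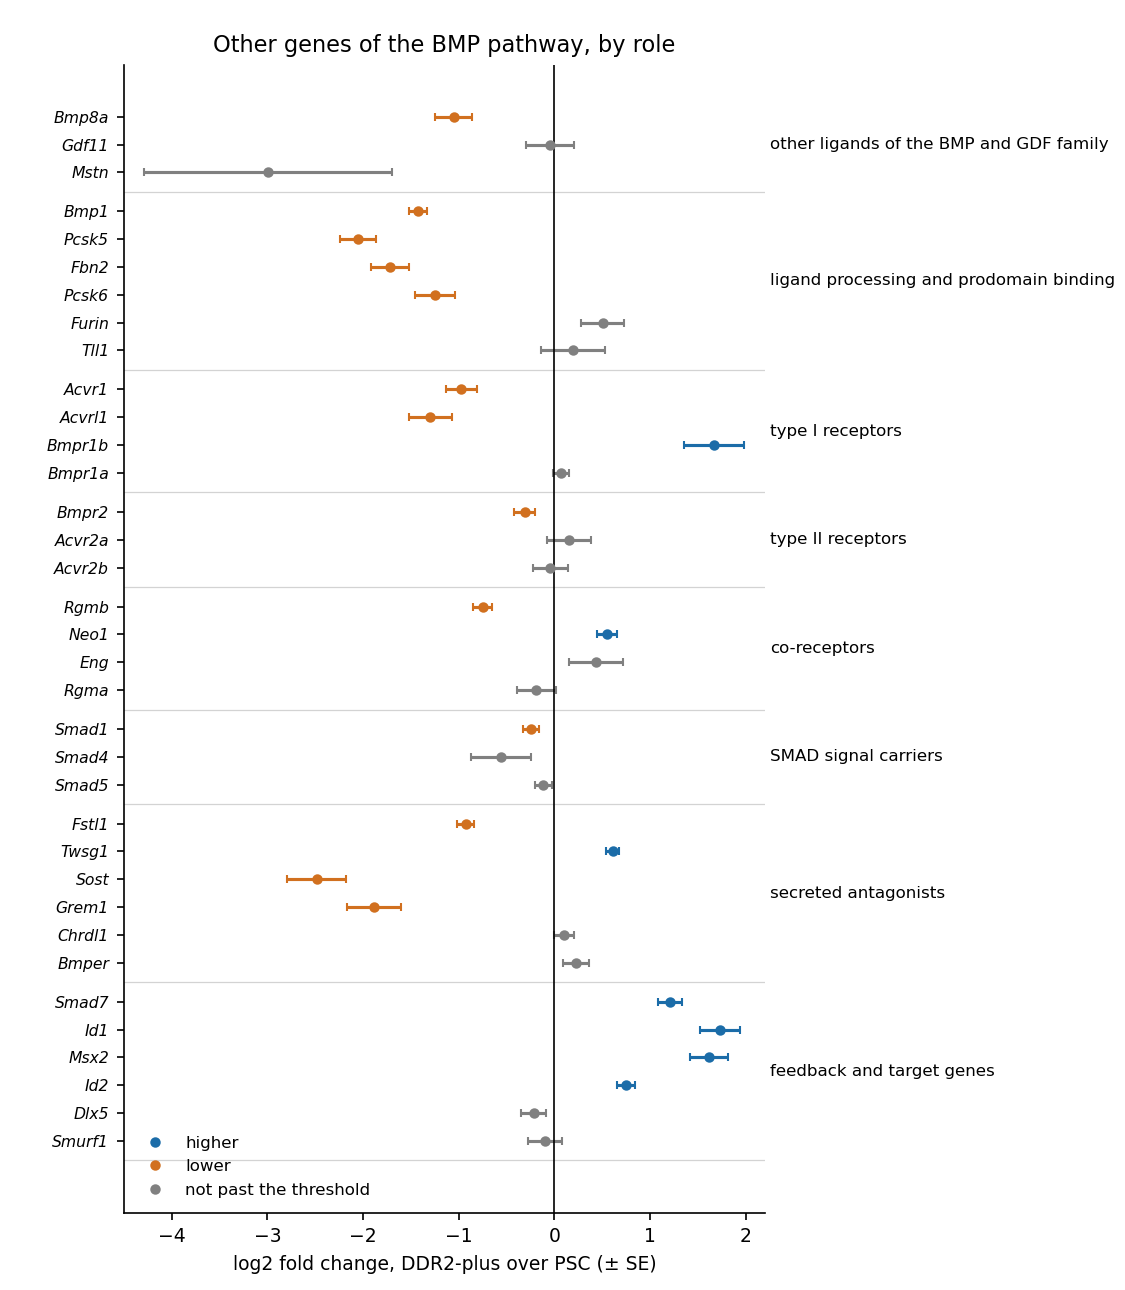
Log2 fold change, DDR2-plus over PSC, with its SE, of the named genes of the BMP pathway other than the 9 ligands, grouped by role. Colour gives the edgeR call. Bmp1, Pcsk5, Pcsk6 and Fbn2 are all lower, Id1, Id2, Smad7 and Msx2 are all higher, and receptors and antagonists lie on both sides.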

How the data were processed

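Per the labels' protocols, 1 ng of RNA per library was turned into cDNA by template switching, amplified, tagmented and read paired-end with 50 cycles, which does not keep the strand. The authors deposited raw counts by gene symbol, all of them whole numbers. Build mm10 and DESeq are named per the submitters' processing notes. Aligner, counter and annotation: not given in the sources used here. Of its columns of libraries, 0 were left unused.

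Counts were tested with edgeR 4.0.16 in R 4.3.3 (TMM factors, filterByExpr, quasi-likelihood test, no covariates, Benjamini-Hochberg over 15416 genes, threshold 0.05), DDR2-plus over PSC. The procedure was also run on simulated counts with far fewer changed genes than were called here. That run therefore does not test the scaling under a difference as wide as this one. CPM were scaled by the TMM factors (0.898 to 1.13). Exon lengths and positions come from GENCODE M21, and CPM per kb divides by the union of exons. Promoters are RefSeq's. Amplified reads are not independent molecules. The 9 ligands and the gene lists were chosen with earlier results of these data known. From each list up to 4 genes past the threshold with the smallest p and up to 2 others with the highest CPM were named, together with the 3 genes most like each ligand, of which some are not reported here. Id3, Id4, Smad6 and Bambi, the family ligands under the filter, Ddr2 and Ctsk were named outside that rule, after their values were seen. Alternatives were other scalings and filters, DESeq2 1.42.0, limma-voom (limma 3.58.1), a replicate block, leaving out each library, and DDR2-plus 2 and 3 alone, the last chosen after seeing the data.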

Additional observations from a re-analysis of the deposited data

Results flagged for a closer look

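In 3 of the 88 groups of 5 libraries examined (the 9 ligands and the named pathway genes, per population), a single library stood far from the others, where chance gives about 1 in 20. None of the 18 groups of the ligands did (0). Pcsk6 was at 47.6 CPM in DDR2-plus 4, with the other DDR2-plus libraries at 73.3 to 78.3 CPM. Smad1 was at 96.0 CPM in DDR2-plus 2, with the others of that group at 78.4 to 82.4 CPM. Grem1 was at 11.3 CPM in PSC 4, with the other PSC libraries at 6.07 to 7.10 CPM.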

How the results depend on the processing

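Bmp2, Bmp3, Bmp4, Bmp5, Bmp6, Bmp7 and Gdf5 kept their direction and call in all 20 alternative fits. Gdf6 did in 19, and Gdf10 passed as higher in 9, among them RLE factors, upper-quartile factors, the stricter filter, DESeq2 and limma-voom. With DDR2-plus 2 and 3 alone, 3021 genes were called, 1539 higher and 1482 lower, against 6022 with all libraries, a fit with fewer samples, and the ligands split 5 higher and 2 lower. Library size alone gave 5421 higher and 1538 lower genes and turned Smad1 (log2 fold change 0.019). Without division by length, shares of the ligand sum in DDR2-plus and PSC were 39.4% and 41.4% for Gdf10, 22.2% and 12.1% for Bmp2, 8.91% and 21.03% for Bmp3, 2.90% and 7.66% for Bmp4 and 5.50% and 2.75% for Gdf5. The libraries' numbers are shared by the populations, but the labels do not say that they pair, and same-numbered libraries deviated together only weakly (r from 0.029 to 0.053), although all 5 DDR2-plus and all 5 PSC libraries correlated best with their own number. A replicate block called 5742 genes and 6 higher and 3 lower ligands, Gdf10 included (edgeR adjusted p = 0.0431). Of 320 list counts, 32 moved by over 1.5 times or to or from 0, and 288 did not. Depth limits mainly Gdf6, with 24 to 303 counts per library.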
